A study of Mus musculus with 2 samples.

Results

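Tbx1, Tbx2, Tbx3, Tbx4, Tbx5, Tbx15, Tbx18 and Tbx20 are 8 mouse genes for T-box transcription factors, proteins that share a DNA-binding domain called the T-box and that act in the embryonic heart, limbs and body wall. Suz12 peaks were assigned to them where a peak overlapped the gene or lay within 10 kb of either of its ends, with gene positions from RefSeq on GRCm38. All 8 genes were found among the 21627 protein-coding genes of that annotation on the chromosomes with peaks, and 28 of the 3373 deposited peaks were assigned to them. Suz12 is a core subunit of Polycomb Repressive Complex 2, the enzyme complex that methylates histone H3 on lysine 27.

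The peaks come from 1 chromatin immunoprecipitation library, made with an antibody against Suz12 from wild-type E14 cells (replicate 1), a mouse embryonic stem cell line. These cells were differentiated for 72 h in serum medium that lacked LIF, the cytokine that keeps such cells undifferentiated, and held all-trans-retinoic acid at 1 µM. The series also labels 1 library of Suz12[-/-] cells at 0 h, in serum medium and made with the same antibody, which was not analysed here. With 1 library, no comparison between groups, no replicate error and no p-value can be given, and every value below describes this library. A peak list of a bulk culture cannot tell more Suz12 at a locus in each cell apart from Suz12 there in more of the cells, and holds no expression by which the state of the culture could be checked. The list gives no reads, so the depth is unknown, and weak Suz12 signal under the limit of the authors' peak caller cannot be seen.

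In the embryo, T-box factors bind DNA through the T-box and either activate or repress their targets. Tbx5 is known as an activator that works with Nkx2-5 and Gata4 in the heart, while Tbx2 and Tbx3 are repressors that keep parts of the heart, such as the atrioventricular canal, from becoming chamber muscle. Tbx2 and Tbx4 are neighbours on one chromosome and Tbx3 and Tbx5 on another, an arrangement that goes back to the duplication of an ancestral pair. Polycomb Repressive Complex 2 is known to occupy CpG-rich promoters of developmental regulators while these are silent. By its title, the series is about silenced genes and the arrival of this complex at CpG islands.

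The promoter windows of the RefSeq table, which run from 250 bases before to 50 bases after an annotated start, are shown first. Each window printed here lay either wholly under a peak or wholly outside the peaks, so the peaks resolve nothing within a window. The table (build GRCm38.p6) held 5 windows for 4 of the 8 genes, with 2 for Tbx1 and 1 each for Tbx4, Tbx18 and Tbx20. The window of the long non-coding RNA gene Tbx3os1 is added because it lies inside Tbx3 near an end without a peak, and those of the lncRNA genes Gm36767 and Gm46817 because they held the most and the fewest CpG among the windows near the 8 genes that a peak covered. Each sequence reads 5′ to 3′ along its gene's strand, and capitals mark CpG, the C followed by G.
Tbx1, inner start, minus strand, chr16:18588850-18589149, under a peak: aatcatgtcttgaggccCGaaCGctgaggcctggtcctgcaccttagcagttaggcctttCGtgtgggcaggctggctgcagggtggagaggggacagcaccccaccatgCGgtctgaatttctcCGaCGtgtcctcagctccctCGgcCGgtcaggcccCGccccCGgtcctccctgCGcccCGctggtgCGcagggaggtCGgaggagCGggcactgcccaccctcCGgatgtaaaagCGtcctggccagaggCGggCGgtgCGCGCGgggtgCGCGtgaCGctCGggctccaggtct
Tbx1, outer start, minus strand, chr16:18590622-18590921, under a peak: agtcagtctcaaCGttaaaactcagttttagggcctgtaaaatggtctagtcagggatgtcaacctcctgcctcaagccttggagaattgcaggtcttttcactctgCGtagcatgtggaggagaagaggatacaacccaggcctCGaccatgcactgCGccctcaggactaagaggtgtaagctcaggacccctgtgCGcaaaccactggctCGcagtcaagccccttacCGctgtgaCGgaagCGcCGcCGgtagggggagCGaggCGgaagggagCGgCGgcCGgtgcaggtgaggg
Tbx18, minus strand, chr9:87731211-87731510, under a peak: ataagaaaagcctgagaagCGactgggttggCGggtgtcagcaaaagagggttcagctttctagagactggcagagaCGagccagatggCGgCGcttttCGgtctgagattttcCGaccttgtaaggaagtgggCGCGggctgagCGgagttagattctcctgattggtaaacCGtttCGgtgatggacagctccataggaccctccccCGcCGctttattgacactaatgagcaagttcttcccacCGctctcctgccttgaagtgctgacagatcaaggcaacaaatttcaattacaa
Tbx20, minus strand, chr9:24774254-24774553, under a peak: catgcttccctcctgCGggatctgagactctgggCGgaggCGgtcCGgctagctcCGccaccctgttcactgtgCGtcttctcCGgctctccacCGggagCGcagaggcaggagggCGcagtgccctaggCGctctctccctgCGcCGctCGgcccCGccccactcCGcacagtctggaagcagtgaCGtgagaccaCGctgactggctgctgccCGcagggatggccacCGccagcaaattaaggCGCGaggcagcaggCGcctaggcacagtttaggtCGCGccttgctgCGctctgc
Gm36767, plus strand, chr9:87739134-87739433, under a peak beyond Tbx18: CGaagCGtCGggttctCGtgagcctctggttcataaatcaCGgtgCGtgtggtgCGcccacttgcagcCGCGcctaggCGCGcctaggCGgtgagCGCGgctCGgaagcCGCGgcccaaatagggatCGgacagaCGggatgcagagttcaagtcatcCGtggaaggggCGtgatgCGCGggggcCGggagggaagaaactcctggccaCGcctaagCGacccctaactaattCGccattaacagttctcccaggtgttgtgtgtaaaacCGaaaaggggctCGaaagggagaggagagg
Gm46817, minus strand, chr3:99241531-99241830, under a peak at the lower end of Tbx15: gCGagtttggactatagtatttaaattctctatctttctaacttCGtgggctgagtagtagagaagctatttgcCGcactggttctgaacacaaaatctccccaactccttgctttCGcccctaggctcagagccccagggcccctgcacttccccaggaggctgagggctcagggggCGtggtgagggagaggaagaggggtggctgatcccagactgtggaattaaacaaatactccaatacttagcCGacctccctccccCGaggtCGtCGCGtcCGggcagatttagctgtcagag
Tbx4, plus strand, chr11:85896515-85896814, no peak: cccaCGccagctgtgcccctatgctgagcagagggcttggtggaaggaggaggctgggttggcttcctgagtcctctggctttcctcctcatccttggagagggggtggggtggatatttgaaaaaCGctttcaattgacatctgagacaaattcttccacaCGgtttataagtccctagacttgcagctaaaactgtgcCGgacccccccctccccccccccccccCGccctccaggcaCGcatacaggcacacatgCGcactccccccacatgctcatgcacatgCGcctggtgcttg
Tbx3os1, minus strand, chr5:119671459-119671758, no peak: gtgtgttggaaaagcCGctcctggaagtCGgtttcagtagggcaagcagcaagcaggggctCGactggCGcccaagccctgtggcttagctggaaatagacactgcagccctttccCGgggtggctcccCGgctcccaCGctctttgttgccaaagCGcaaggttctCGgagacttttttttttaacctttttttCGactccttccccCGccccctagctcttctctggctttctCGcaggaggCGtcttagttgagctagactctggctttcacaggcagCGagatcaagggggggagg

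Suz12 peaks lay at all 8 genes. By the same rule 15.9% of all protein-coding genes had a peak, namely 3437 of 21627. The genes were picked with earlier results of these data known, so the count describes them and carries no test. The peaks took different shapes at different genes. They filled Tbx1 and Tbx2 almost completely and sat around the annotated start of Tbx18 and Tbx20. At Tbx4 and Tbx15 they lay over the first part of the gene in coordinate order, at Tbx5 in separate groups inside a long gene, and at Tbx3 on both sides of an end that itself had no peak.

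The 28 peaks had a median width of 2188 bp, from 867 to 12020 bp, against a median of 1848 bp, from 318 to 20581 bp, for the other 3345 peaks. Their median score was 808, from 177.5 to 3100, against 569, from 150.3 to 3233, for the others. The score is the authors' own value per peak, its scale is not stated in the file, and it is used here only to describe and rank peaks. A score of 3100 was shared by 325 peaks of the list and 30 scored higher, so values at 3100 cannot be ordered among themselves. Of the 28 peaks, 5 (17.9%) had this score, against 350 of the others (10.5%) with this score or more. These 5 belonged to Tbx1, Tbx2 and Tbx5, with 1 each, and Tbx18, with 2. At 3100 or more, 4 of the 8 genes had a peak, against 437 (2.02%) of all protein-coding genes, of which 3437 had a peak of any score.

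**Figure D1:**
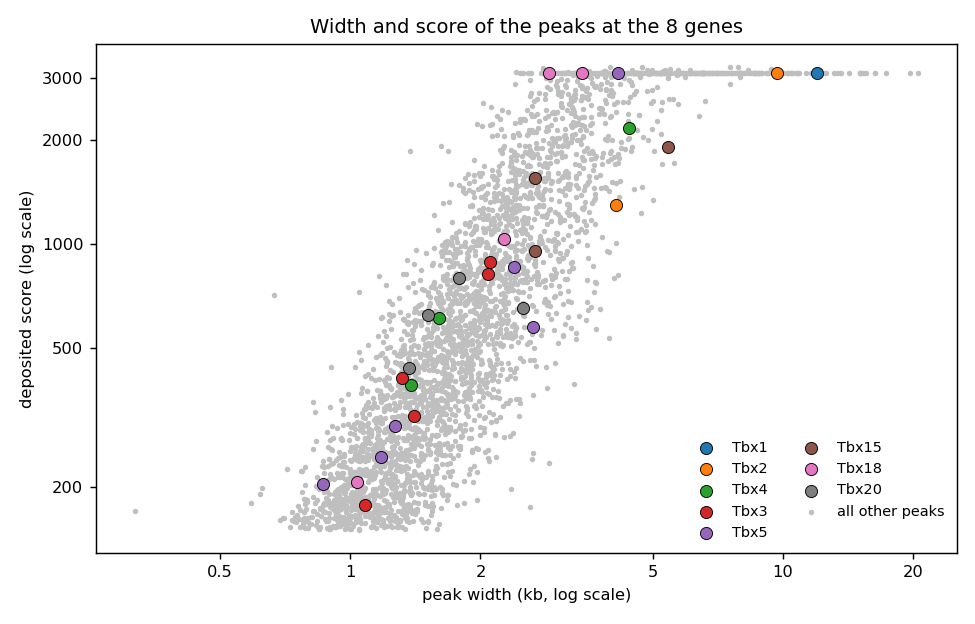
Each point is a Suz12 peak, with its width in kb on the horizontal axis and its deposited score on the vertical axis, both on log scales; coloured points are the 28 peaks at the 8 T-box genes and grey points the other 3345. The coloured peaks run from 867 bp at Tbx5 to 12020 bp at Tbx1, inside the range of the grey ones, and 5 of them lie on the line of ties at a score of 3100.

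Tbx1 acts in the pharyngeal arches and the outflow tract of the heart, and its loss in mice disrupts both. It lies on chromosome 16 from 18580979 to 18590671 on the minus strand and had 1 peak, from 18580363 to 18592382. This peak of 12020 bp scored 3100, was the 25th widest of the list and covered 100% of the gene. It ran 616 bp past the lower end and 1711 bp past the upper end, where transcription of the longest annotated form begins. Both Tbx1 promoter windows lay wholly under it. The lncRNA gene Gm35369, which begins inside Tbx1 on the opposite strand, had 48.1% of its 7453 bp covered by the same peak. No other peak lay within 10 kb, and the next ones began 29240 and 34844 bp away, over Gp1bb and Septin5 (score 2778) and over Septin5 (703).

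Tbx2, a repressor of the atrioventricular canal and outflow tract, had nearly as complete a cover. The gene lies on chromosome 11 from 85832615 to 85841948. A peak of 9679 bp with score 3100 ran from 85832869 to 85842547, past the upper end by 599 bp. A second of 4122 bp with score 1297 ran from 85828740 to 85832861, across the lower end. Only 7 bp separated them, so that peaks covered 99.93% of Tbx2, and what the authors' caller wrote as 2 peaks was 1 domain of 13808 bp when peaks within 3 kb were joined. The lower-lying peak also covered 3649 bp of the lncRNA gene 2610027K06Rik, whose upper end lies 227 bp from Tbx2. Bcas3, which overlaps that lncRNA gene and lies 6557 bp from Tbx2, had no peak over it and lay 2682 bp from the nearest.

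Tbx4, a factor of the hindlimb and the lung bud, lies next to Tbx2 on the plus strand, from 85886367 to 85916097. Its 3 peaks lay at the start and in the first part of the gene. The first, of 1381 bp with score 393, covered the outer start. The widest, of 4408 bp with score 2156, began 1330 bp inside the gene. The last, of 1602 bp with score 614, ended 9746 bp inside it. Together they covered 22.7% of the gene, and the last 19984 bp up to its far end had no peak. The RefSeq promoter window of Tbx4 belongs to a start further inside the gene and lay 402 bp beyond the last peak. Between the facing peaks of Tbx2 and Tbx4 was a stretch of 43165 bp with 0 peaks, nearly all of the 44418 bp that separate the genes.

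Tbx3, a repressor of the atrioventricular canal, conduction system and limb that is also known to sustain the undifferentiated state of mouse embryonic stem cells, had 5 peaks, the highest of which scored 888. No other of the 8 genes except Tbx20 had so low a best score, with 797 there. The gene lies on chromosome 5 from 119670534 to 119684724. Beyond its lower end, peaks of 2078 bp (score 819) and 2109 bp (score 888) ended 8469 and 6160 bp from the gene. Inside it, peaks of 1317 bp (410.2) and 1401 bp (319) began 9482 and 11744 bp from the lower end. A peak of 1084 bp with score 177.5, the lowest of the 28, began 1889 bp beyond the upper end, inside the lncRNA gene Tbx3os2.

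The lower end of Tbx3 fell in a gap of 15641 bp between peaks. Its neighbour Tbx3os1, a minus-strand lncRNA gene of 60256 bp that starts inside Tbx3 and runs away from it, had its promoter window in the same gap, 7085 bp from the nearest peak, while 3 peaks covered 11.6% of its body. One of these 3, of 2814 bp with score 695, lay 11526 bp from Tbx3, just outside the 10 kb rule, and also covered 21.4% of Gm16064. The peak just inside the rule, at 8469 bp, scored 819. With the peak outside the rule, the group beyond the lower end formed a domain of 8180 bp, and the 3 peaks on the other side one of 7681 bp.

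Tbx5, the activator of heart and forelimb development, had the most peaks of the 8 genes. Its 6 peaks all lay inside the gene, which RefSeq places from 119796514 to 119885220. The first, of 867 bp with score 203, began 916 bp from the lower end and was the narrowest of the 28. The highest-scoring, of 4165 bp with score 3100, began 5448 bp from that end and covered part of the lncRNA gene Gm5563. After 24388 bp without a peak came 4 more, of 2397, 1271, 1175 and 2650 bp with scores of 861, 299, 243 and 577. These 4 formed a domain of 10414 bp, of which peaks covered 72.0%. The last peak ended 44292 bp before the upper end of the gene, and peaks covered 14.1% of the gene as a whole. A RefSeq promoter window of Gm5563 lay under the first of these 4 peaks, and another, 1481 bp from a peak, lay under none.

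The linked pairs held nearly the same covered length, split differently. Peaks covered 21192 bp at Tbx2 and Tbx4 and 20514 bp at Tbx3 and Tbx5. Tbx2 held 13801 bp and Tbx4 7391 bp, whereas Tbx3 held 7989 bp and Tbx5 12525 bp. Tbx2 and Tbx3 are the closest relatives of each other in sequence, as are Tbx4 and Tbx5. In 1 pair the repressor gene and in the other the activator gene thus had the longer cover in bp. By share of the gene covered, the repressor gene was higher in both pairs, with 99.93% at Tbx2 against 22.66% at Tbx4. The share was 19.15% at Tbx3, a gene of 14191 bp, against 14.12% at the longer Tbx5, of 88707 bp. The number of peaks was 5 at Tbx2 and Tbx4 and 11 at Tbx3 and Tbx5. Between the facing peaks of Tbx3 and Tbx5 lay 109733 bp with 0 peaks, which holds the lncRNA gene Gm42017, part of Tbx3os2 and no protein-coding gene. Whether these values differ beyond the error of the assay cannot be told from 1 library.

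**Figure D2:**
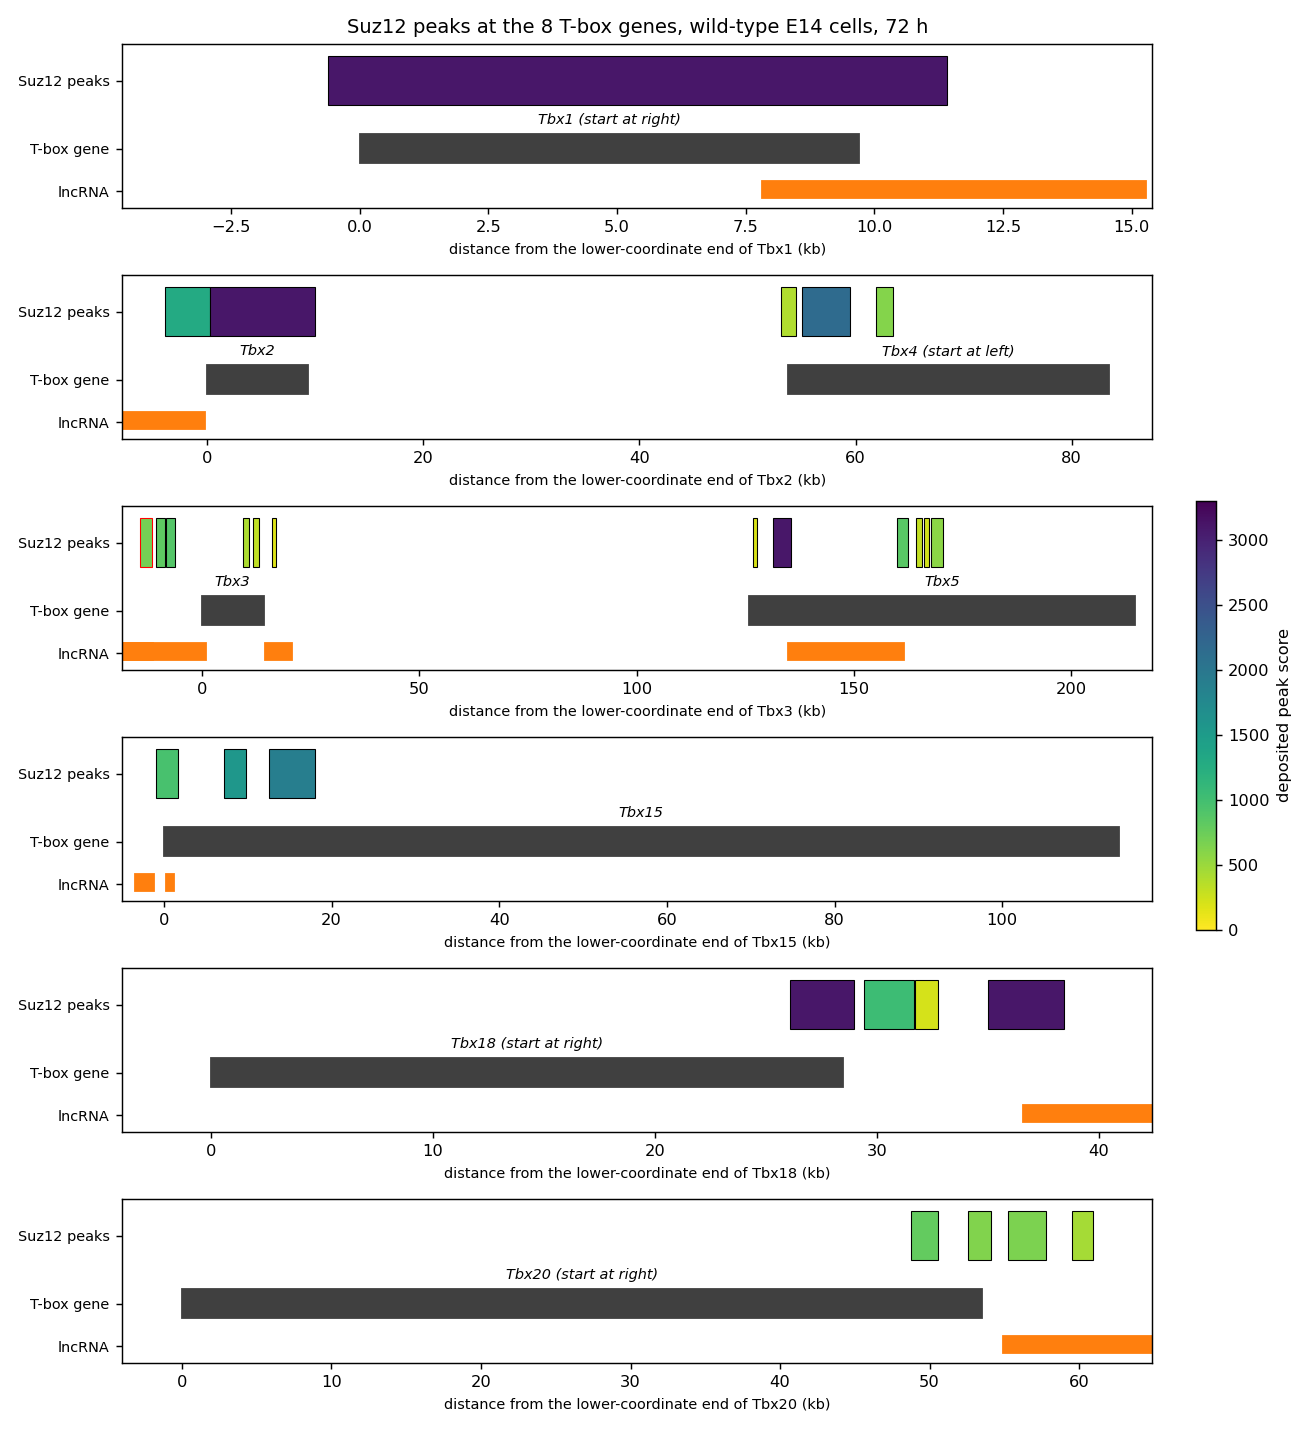
Each panel maps a locus to scale, with distance in kb from the lower-coordinate end of the first named gene; the upper boxes are Suz12 peaks coloured by deposited score, the dark bars the T-box genes and the orange bars non-coding genes within 10 kb of a peak, clipped at the panel's edge. The peak outlined in red lies 11526 bp from Tbx3, outside the 10 kb rule. Tbx1 and Tbx2 lie under nearly continuous peaks, and peak-free stretches of 43165 and 109733 bp separate the linked genes.

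Tbx15 patterns the pigment of the coat and the skeleton in mice. It lies on chromosome 3 from 99240348 to 99354260 and had 3 peaks, the last of which ended 18009 bp from the lower end. A peak of 2677 bp with score 956 covered the lower end. The next, of 2670 bp with score 1552, began 7175 bp inside, and the widest, of 5418 bp with score 1901, began 12592 bp inside. The score and width thus were highest at the innermost peak, not at the end. The remaining 95903 bp up to the upper end had no peak, and 8.6% of the gene was covered. The minus-strand lncRNA gene Gm46817 lay wholly under the first peak, and Gm38468 lay 162 bp from it without being covered.

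Tbx18, a factor of the sinus node, the epicardium and the front part of each somite, lies on the minus strand of chromosome 9 from 87702800 to 87731260. Its 4 peaks lay at its start and beyond it. A peak of 2882 bp with score 3100 covered the start and its whole promoter window. Upstream of it followed peaks of 2266 bp (score 1033) and 1036 bp (score 207), which began 936 and 3238 bp from the gene. A further peak of 3426 bp with score 3100 began 6524 bp upstream and covered the start of the lncRNA gene Gm36767 with its whole promoter window. The 4 peaks made 1 domain of 12331 bp, and 8.37% of the gene itself was covered.

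Tbx20 is needed for growth of the heart chambers and lies on the minus strand of chromosome 9 from 24720812 to 24774303. Its 4 peaks measured 1785, 1512, 2512 and 1365 bp, from inside the gene outward, and scored 797, 626, 653 and 440.5, with none near 3100. The second covered the start and the whole promoter window of the gene. The outer peaks overlapped the lncRNA gene Gm29824, which runs away from Tbx20 on the opposite strand and whose own promoter window, 298 bp from the nearest peak, lay under none. They formed 1 domain of 12147 bp, of which 59.1% was covered. Of the 8 genes, Tbx20 had the smallest covered length, 7174 bp, and the lowest share of gene covered, 5.02%.

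Set in order, the length covered by peaks over or within 10 kb of the gene was 13801 bp at Tbx2, 12525 bp at Tbx5, 12020 bp at Tbx1, 10765 bp at Tbx15, 9610 bp at Tbx18, 7989 bp at Tbx3, 7391 bp at Tbx4 and 7174 bp at Tbx20. With no replicate, the order of neighbours in this series is not shown to hold. The median of the 8 was 10187.5 bp, against 2125 bp for all protein-coding genes with a peak, and all 8 lay above the upper quartile of those genes, 3441 bp. Among all 21627 genes the 8 ranked between 73 for Tbx2 and 284 for Tbx20 by this length, which favours long genes since the stretch searched grows with the gene. By number of peaks, 6 of the 8 had at least 3 and 4 had at least 4, against 6.9% and 2.39% of the genes with a peak. A count of peaks depends on how the authors' caller split broad signal, as at Tbx2.

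Summed over the 8 genes, 55861 of 81275 covered bp (68.7%) lay over the genes themselves. At 3 of them most of it lay beyond the gene, which held 2718 of 7989 bp at Tbx3, 2382 of 9610 bp at Tbx18 and 2683 of 7174 bp at Tbx20. Of the 28 peaks, 7 covered an end of the gene, 13 lay inside it and 8 lay beyond it. At least 1 end was covered at 6 genes, against 1817 (8.4%) of all protein-coding genes. Both ends were covered at 2, Tbx1 and Tbx2, against 160 (0.74%). Since all 8 genes had a peak, the nearer base for these counts is the 3437 genes with a peak. These include all of the 1817 and all of the 160, so most genes with a peak also had at least 1 end covered. The genes with neither end covered were Tbx3 and Tbx5. Where the strand is given by the promoter table, the end of the gene at which transcription begins was covered at all 4 genes. The promoter window of Tbx4, at a start further inside the gene, lay under no peak. The far end was covered as well at Tbx1 and had no peak at Tbx4, Tbx18 and Tbx20. The promoter table gives no strand for Tbx2, Tbx3, Tbx5 and Tbx15.

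Joining peaks within 3 kb gave 12 domains at the 8 genes, 7 of them longer than 10 kb. Every gene but Tbx3 had a domain of that length, but with peaks joined within 1 kb only Tbx1 and Tbx2 did. At 3 kb the longest ranked 50th among the 2990 domains of the list, of which 105 (3.51%) were longer than 10 kb. Of 11 other genes annotated within 10 kb of these peaks, 10 were lncRNA genes and 1, Bcas3, protein-coding. Peaks overlapped 9 of the 10 lncRNA genes, a count that the choice of neighbours near peaks favours. Neither count was made around the other peaks of the list, so neither is shown to be particular to these loci.

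The windows printed above differed in CpG content. Of the 5 windows at the T-box genes, 4 lay under a peak in full, against 6.8% of all 32619 windows overlapped by one. These 4 windows belong to 3 genes, since both Tbx1 windows lay under the same peak. The T-box genes all had a peak within 10 kb, which most genes lack, so the 6.8% is not a like base. The Tbx1 inner window held 26 CpG with 69.0% G+C, and the Tbx20 window 26 CpG with 68.3%. The Tbx1 outer window held 16 CpG with 58.3% and the Tbx18 window 15 CpG with 51.7% G+C. The observed number of CpG was 0.729, 0.745, 0.633 and 0.755 of that expected from the C and G content, at the Tbx1 inner, Tbx20, Tbx1 outer and Tbx18 windows in that order. Across the list, windows with a peak had a median of 21 CpG and a ratio of 0.718, against 6 CpG and 0.356 for windows without. A total of 34.9% of all windows held at least 15 CpG.

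The windows of Tbx4 and Tbx3os1, which had no peak, held fewer CpG than the 4 covered windows of the T-box genes. The Tbx4 window held 8 CpG with a ratio of 0.314 and 59.0% G+C. The window of Tbx3os1 held 14 CpG with a ratio of 0.568, one CpG fewer than the covered window of Tbx18. The window of Bcas3, far from the peaks of Tbx2, held 19 CpG and had no peak. The highest count and ratio near the 8 genes, 29 CpG and 1.056, belonged to the window of Gm36767, under the outer peak of Tbx18. Of the 10 windows of neighbouring genes, 4 lay under a peak, that of Gm36767, that of Gm35369 with 15 CpG, 1 of Gm5563 with 12 and that of Gm46817 with 11. The T-box binding motif GGTGTGA, searched on both strands, was in 0 of the 15 windows of the 8 genes and their neighbours, against 3.98% of all windows. At that share, so few windows cannot show a lack of the motif, and only 5 of the 15 belong to the T-box genes.

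**Figure D3:**
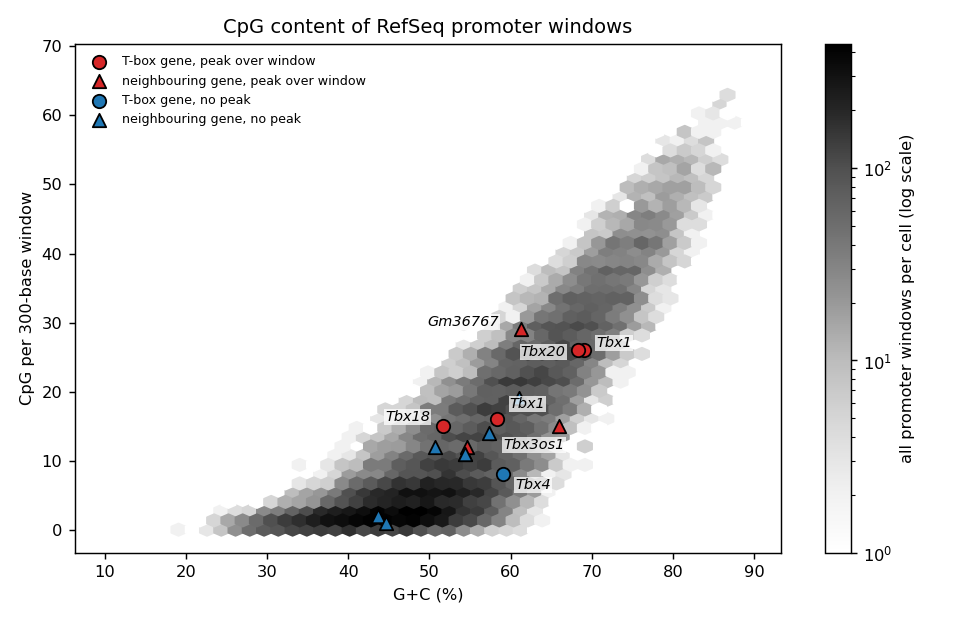
Each marker is a 300-base promoter window at a T-box gene (circles) or at a gene next to one (triangles), placed by its G+C content in percent and its number of CpG, in red where a Suz12 peak overlaps it and in blue where none does; the grey cells count all 32619 windows on a log scale. The covered windows of Tbx1, Tbx18 and Tbx20 hold 15 to 26 CpG, and the Tbx4 window, without a peak, holds 8.

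Some of the other T-box genes had peaks and some had none. Of 9 such genes, 4 had a peak, against 15.9% of all protein-coding genes. T, known as Brachyury, which drives formation of mesoderm in the primitive streak, had a peak of 4229 bp with score 3100 over its start. Eomes, a factor of early mesoderm, endoderm and trophoblast, had 2 peaks that covered 8902 bp, the higher with score 3100 over its start. Tbr1, a factor of cortical neurons, had 3 peaks with scores of up to 2615, over 51.5% of the gene. Tbx21, a factor of T helper cells, had 1 peak of 3353 bp with score 1987 over its start.

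No peak lay within 10 kb of Tbx6, Tbx10, Tbx19, Tbx22 or Mga. The nearest peak was 61649 bp away at Tbx6, a factor of the presomitic mesoderm, and 100244 bp at Tbx10. It was 112021 bp away at Mga, which also binds Max, 1147696 bp at Tbx19, a factor of the pituitary, and 1902003 bp at Tbx22, a factor of the palate. The longest cover among these 9 genes, 8902 bp at Eomes, exceeded that of Tbx3, Tbx4 and Tbx20 and was below that of the other 5 heart and limb genes. The heart and limb T-box genes were grouped by role with earlier results known, and no difference between them and the rest of the family was tested.

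**Figure D4:**
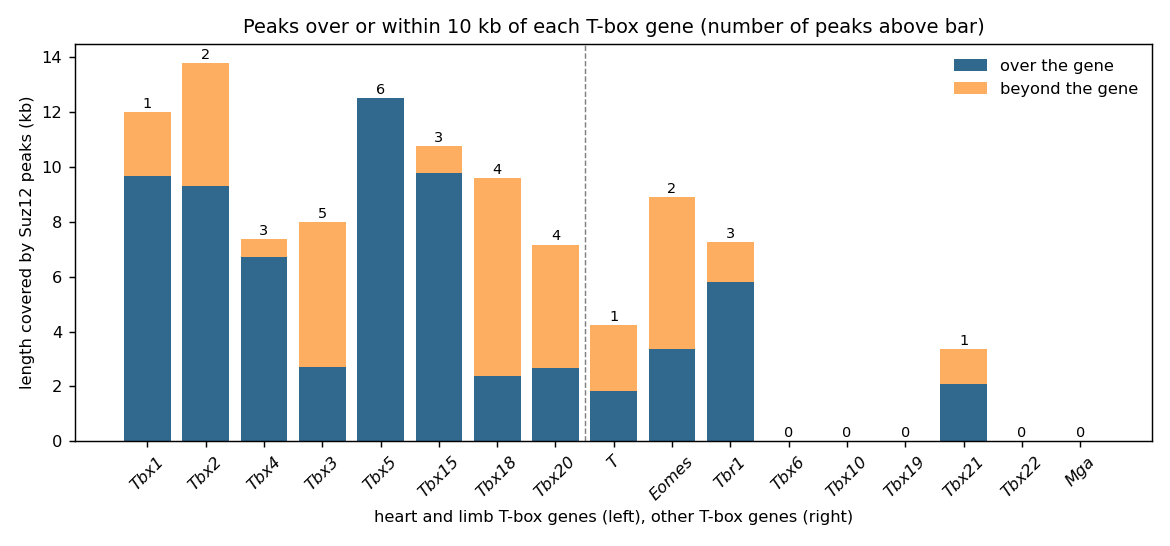
Bars give the length in kb covered by Suz12 peaks over each T-box gene (blue) and within 10 kb beyond it (orange), with the number of peaks above; the 8 heart and limb genes are left of the dashed line and the other 9 T-box genes right of it. The 8 genes hold from 7174 bp at Tbx20 to 13801 bp at Tbx2, and 5 of the other 9 hold no peak.

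Other genes of the heart and limb were read from a pair of lists that share 4 genes. Most are regulators, but the heart list also holds genes that are not, such as Myh6, Gja5 and Hcn4. A peak lay at 19 of 30 heart genes (63.3%) and 26 of 32 limb genes (81.2%), against 15.9% of all protein-coding genes. In the heart list the highest scores were at Foxc1 (3233) and Gata6 (3182), followed by Nkx2-5, a partner of Tbx5, with a score of 3171 and 3 peaks. Foxc2 and Hand1 each had a best score of 3100. Gata4, another partner of Tbx5, had 4 peaks that covered 10712 bp with a best score of 2074. The pacemaker channel gene Hcn4 had 1 peak of score 800.0. Myh6, a myosin of heart muscle, and Gja5, a gap junction protein, were among the 11 heart genes without a peak, as were Bmp10, Fgf10, Mef2c and Myocd. Gata4 and Hcn4 were named after their values were seen.

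In the limb list the highest score was at Msx1 (3187). A score of 3100 was shared by 13 further limb genes. Of these, the 5 with the longest cover were the Hox genes Hoxd11, Hoxc10, Hoxa11, Hoxd13 and Hoxc11, chosen by that length. Their cover ran from 22244 to 33523 bp, above each of the 8 T-box genes. Listed Hox genes of the same cluster shared peaks, so these lengths are not separate. Hoxc10 and Hoxc11, for example, both counted a peak of 20581 bp. Pitx1, which acts with Tbx4 in the hindlimb, had 1 peak of 14266 bp with score 3100, and was named after its values were seen. Fgf10, the limb bud ligand that Tbx5 and Tbx4 activate, had no peak, nor did Bmp4, Gli3, Meis1, Meis2 or Sall4. The median covered length was 10187.5 bp for the 8 T-box genes, 1809.5 bp for the heart list and 5438.5 bp for the limb list, with genes without a peak counted as 0. A peak shared by listed neighbours was counted at each of them.

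**Figure D5:**
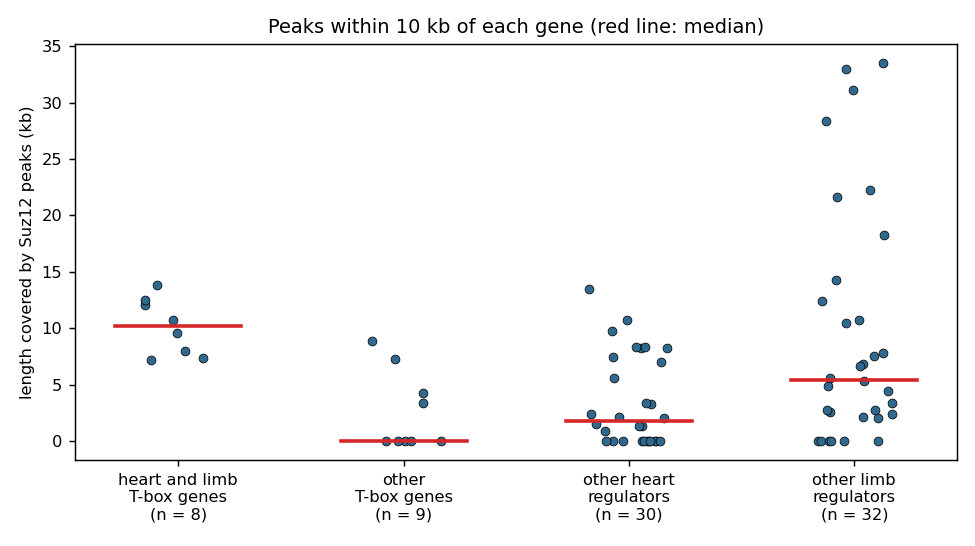
Each point is a gene, placed by the length in kb covered by Suz12 peaks over it or within 10 kb; the red line is the median of the list and the horizontal spread within a list has no meaning. The 8 heart and limb T-box genes lie between 7174 and 13801 bp, while each of the other lists has genes at 0 and the limb list reaches 33523 bp at Hoxd11.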

How the data were processed

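The submitters' processing notes name the tools Bowtie and MACS, with GRCm38 (mm10) as the genome build; their versions and settings, the control library and any pooling are not stated in these sources. The deposited file has no header and holds for each peak a start, an end and a score. Starts were raised by 1 base, since lists of this layout count from 0. Genes, promoter windows and sequences came from RefSeq tables of GRCm38.p6, which give no exons or untranslated regions, and a strand only for genes with a promoter window. Intervals were compared in Python 3.11.15 with pandas 2.3.3, and the counting was checked on planted peaks. The 8 genes, the lists and the alternatives were chosen with earlier results of these data known. Named genes are the 8, all other T-box genes, genes within 10 kb of their peaks, and, from the heart and limb lists, up to 6 with the highest scores, ties by covered length, and up to 6 without a peak in alphabetical order. Gata4, Hcn4, Pitx1, Gp1bb and Septin5 fall outside this rule and were named after their values were seen. One gene that this rule names is not reported here. No test was run, because 1 library has no replicate.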

Additional observations from a re-analysis of the deposited data

How the results depend on the processing

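All 8 genes had a peak under each of the 6 other settings, which required overlap with the gene, a distance of 2.5, 20 or 50 kb, a score at or above the median, or at least double the lowest score; the share of all protein-coding genes then ran from 8.71 to 27.8%. The 20 and 50 kb settings could not lose a gene, since they keep every peak found within 10 kb. Of 50 alternative values, 46 stayed within 1.5 times the value reported and 4 moved. All are counts or lengths, so none could reverse in sign. Joining peaks within 1 kb gave 20 domains at the 8 genes in place of 12, because 8 gaps of 1 to 3 kb lie between peaks at Tbx3, Tbx4, Tbx5, Tbx15, Tbx18 and Tbx20. Genes with a domain longer than 10 kb then numbered 2, Tbx1 and Tbx2, in place of 7, a count added after seeing the data; it was 7 with peaks joined within 5 or 10 kb. All protein-coding genes with a peak numbered 6009 within 50 kb and 1883 with scores at or above the median, by construction. No paired analysis was possible because only 1 library has a peak list. The depth is unknown, so a missing peak sets no limit on binding.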
